A study of Homo sapiens with 15 samples.

Results

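The response common to 4 steroids was measured in ZR-75-1 by setting the equally weighted mean of the MPA, PROG, DHT and DEX groups against vehicle. ZR-75-1 is an established human breast cancer line whose cells carry the estrogen receptor. All 15 arrays of the series entered, 12 from treated cells and 3 from vehicle cells, and the members were the 14841 of 34878 probe sets that carry 1 gene symbol, for 14361 genes. The abbreviations were read in their usual sense as medroxyprogesterone acetate, progesterone, dihydrotestosterone and dexamethasone. Each compound was given at 10 nM for 6 h, with 3 arrays per compound, in RPMI medium with 10% serum that reached every group. The vehicle was 0.1% ethanol, but the same labels also call these cells untreated, and no label states the solvent of the compounds. A change shared by the 12 treated arrays and an effect of ethanol therefore cannot be told apart from the labels alone. No source used here says that arrays of a group came from separate cultures, so the p-values measure only the spread between arrays, which may be technical.

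Steroid hormone receptors are transcription factors that bind DNA once they have bound their hormone. The progesterone, androgen and glucocorticoid receptors recognise closely related DNA sites, built from repeats of TGTTCT and its reverse complement AGAACA, and many of their target genes are shared. PROG is the natural ligand of the progesterone receptor and DHT a ligand of the androgen receptor, while DEX is a synthetic glucocorticoid. MPA is a synthetic progestin that is also known to bind the androgen and glucocorticoid receptors. The pool gives each compound an equal weight, so progestins, given as PROG and as MPA, weigh more in it than either other class.

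The values are log2 signals as the authors deposited them, with array medians between 3.69 and 3.73, so a difference of 1 is a doubling. Any 2 arrays of a group correlated at 0.9971 to 0.9978 over probe sets, and treated with vehicle arrays at 0.9953 to 0.9973. The mean log2 level of 16 luminal markers was 9.42 to 9.46 on vehicle and 9.42 to 9.53 on treated arrays. Basal markers lay at 4.12 to 4.19 on vehicle and 4.09 to 4.22 on treated arrays, and fibroblast markers at 3.98 to 4.01 and 3.88 to 4.06. Blood and endothelial markers lay at 4.16 to 4.19 and 4.12 to 4.29. Of these non-luminal markers, 4 of 7 basal, 3 of 6 fibroblast and 4 of 6 blood and endothelial genes were under the median of the array medians. Whether the small shifts in these marker levels bear on any result was not tested.

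The pooled response was mostly a rise of gene expression. With limma and Benjamini-Hochberg adjustment over all 14841 probe sets, 524 passed an adjusted p of 0.05 (3.53%), of which 409 were higher (2.76%) and 115 lower (0.775%) in treated cells. These are referred to as raised and lowered. The raised probe sets stood for 403 genes and the lowered for 115. With 1 probe set for each of 14361 genes, 2.76% were raised and 0.794% lowered, and the list counts below stand beside these shares. Most changes were small: the median log2 change was 0.29 among the raised and -0.22 among the lowered, and 46 reached 1.5-fold, 45 of them raised. Past 2-fold there were 11, all raised. At an unadjusted p under 0.05 there were 2051 (13.8%). By gene type the share called was 494 of 12226 protein-coding (4.04%), 10 of 1365 long noncoding (0.733%) and 2 of 463 transcribed pseudogene probe sets (0.432%). The 12 treated arrays lay above all 3 vehicle arrays in 241 probe sets (1.62%) and below them in 98 (0.660%). Among the raised probe sets 195 (47.7%) were separated in that way, as were 65 of the lowered (56.5%). Because the 3 vehicle arrays stand against 12 others, the vehicle mean carried 80.0% of the variance of the pooled difference. Without vehicle array 1 or 3 the number lowered was 70 in either case.

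The pooled mean does not by itself say that the 4 compounds acted alike. An F test among the compounds, which leaves the vehicle arrays out of the contrast, called 602 of 14841 probe sets (4.06%). It called 256 of the 409 raised (62.6%) and 45 of the 115 lowered (39.1%), so most raised genes differed in size between compounds. All 4 compound means lay on the same side of vehicle in 376 of the 409 raised and 112 of the 115 lowered probe sets. These probe sets were chosen on the pooled mean, and the 4 changes share the vehicle arrays. The same-side counts are therefore partly built in and do not show that the compounds acted alike. The call held with each compound left out of the pool in turn in 276 (52.7%), 236 of them raised and 40 lowered. When the 12 treated arrays were fitted as 1 group, so that differences between compounds count as error, 67 passed, 57 raised and 10 lowered. The arrays used in these fits are the same, so the 67 are a stricter reading of the 524 and no further evidence for them.

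**Figure D1:**
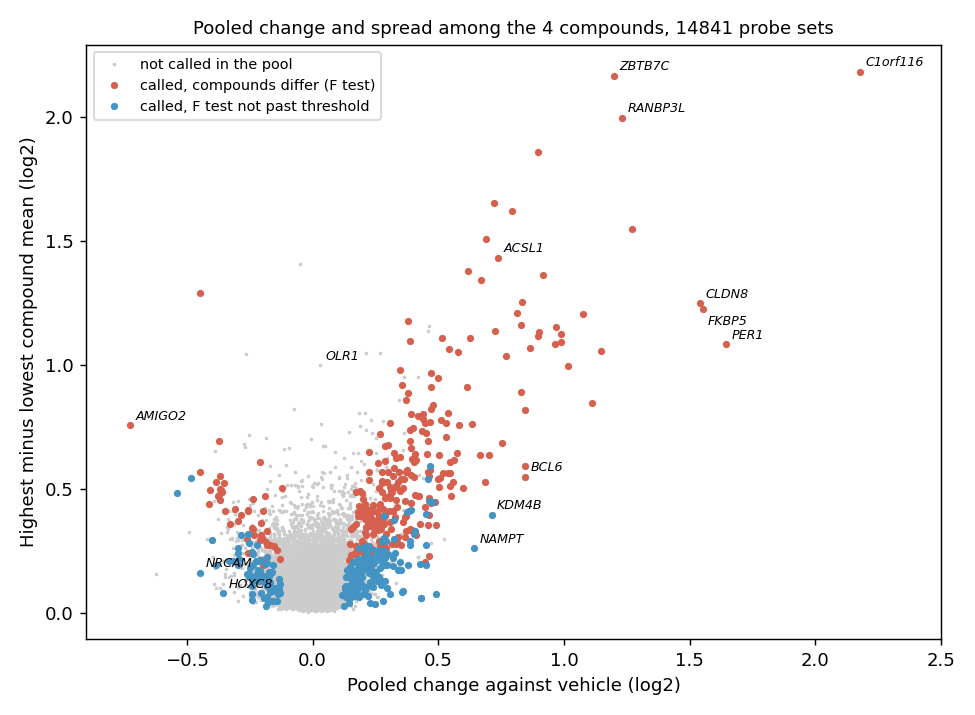
The pooled log2 change of each probe set with 1 symbol (horizontal axis) is plotted against the highest minus the lowest of its 4 compound means (log2, vertical axis). Called probe sets are coloured by whether the F test among compounds also called them, and the 11 raised past 2-fold lie to the right, where KDM4B and NAMPT are the labelled genes past 1.5-fold that the F test did not call.

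C1orf116, also known as SARG, a gene named for its response to androgens, had the largest pooled rise. Its log2 levels on the vehicle arrays were 6.74, 6.71 and 6.72, and on the treated arrays they ran from 7.97 over a median of 8.70 to 10.27. The groups were far from overlapping, and the pooled rise was 2.18 ± 0.044 (SE, n = 12 against 3; limma adjusted p = 9.11e-13), or 4.53-fold. The rise was 2.35 with MPA, 1.59 with PROG, 3.48 with DHT and 1.30 with DEX. DHT raised it 1.73 ± 0.046 above the mean of the other compounds (limma adjusted p = 3.24e-11), while the same difference for DEX was -1.18. In the fit of treated cells as 1 group its adjusted p was 0.0485, as the spread between compounds counts as error there. Lack of overlap between treated and vehicle arrays was a rule for choosing many of the named genes. Here and below it is therefore a description.

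PER1, a core repressor of the circadian clock and a direct target of glucocorticoid and progesterone receptors, had vehicle levels of 5.69, 6.00 and 6.04 and treated levels from 6.78 to 8.16 with a median of 7.64. All 12 treated arrays were above all vehicle arrays, and the pooled rise was 1.65 ± 0.083 (limma adjusted p = 2.96e-08), or 3.13-fold. Here DEX gave the largest rise, 2.14, against 1.88 with MPA and 1.06 with DHT, and PROG lay between those. DEX exceeded the mean of the others by 0.66 ± 0.085 (limma adjusted p = 5.56e-04). Of the 14 clock genes measured, CRY2 and PER2, which are also repressors of the loop, were raised too, by 0.37 ± 0.032 and 0.22 ± 0.051, and none was lowered. The median change of the clock genes was -0.01, and 2.76% of all genes were raised. The call of PER2 was lost without any of 3 of the 15 arrays in turn, with an adjusted p of up to 0.140.

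FKBP5 encodes FKBP51, an HSP90 co-chaperone that lowers the affinity of the glucocorticoid receptor for its hormone and is a standard reporter of several steroid receptors. Its vehicle levels were 4.48, 4.43 and 3.83, and its treated levels ran from 5.10 to 6.52 around a median of 5.80. Vehicle array 3 was lower than the other 2, and every treated array was above all vehicle arrays. The pooled rise was 1.55 ± 0.11 (limma adjusted p = 4.60e-07), with 2.16 for MPA, 1.85 for PROG, 0.93 for DHT and 1.26 for DEX. HSD11B2, the enzyme that inactivates cortisol, had vehicle levels of 7.26, 7.38 and 7.18 and treated levels from 7.87 to 9.04 with a median of 8.36. It rose by 1.15 ± 0.051 (limma adjusted p = 8.97e-09), most with MPA (1.70) and least with DHT (0.64). It was the only called gene of 12 steroid metabolism enzymes, whose median change was 0.02.

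Among transcription factors, KLF9, a Kruppel-like factor induced by several hormones, went from vehicle levels of 5.74, 5.65 and 5.70 to treated levels of 6.12 to 7.29, with a median of 6.89. The groups did not overlap and the pooled rise was 1.11 ± 0.072 (limma adjusted p = 3.06e-07), 1.47 with MPA, 1.25 with PROG, 0.63 with DHT and 1.10 with DEX. BCL6, a BTB zinc finger repressor, rose by 0.85 ± 0.042 from vehicle levels of 7.92, 7.96 and 7.98, and its treated levels were 8.43 to 9.12. Its change was 1.08 with MPA and 1.01 with DEX, against 0.75 for PROG and 0.53 for DHT. Beside 2.76% of all genes, 5 of 17 Kruppel-like factors and 4 of 27 BTB zinc finger genes were raised. None of either list was lowered, and the median changes of the lists were 0.13 and 0.05. In the fit of treated arrays as 1 group 2 of each list were raised. KLF5 rose by 0.28 ± 0.045 with compound changes of 0.21 to 0.34, whereas KLF6 rose by 0.30 ± 0.042 with 0.53 for MPA and 0.00 for DHT. ZBTB7B rose by 0.38 ± 0.064 with changes of 0.29 to 0.49, and ZBTB7C by 1.20 ± 0.095 with 2.28 for MPA, 2.06 for PROG, 0.33 for DHT and 0.12 for DEX.

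Of 16 tight junction and transport genes 3 were raised, CLDN8, AQP3 and CLDN7, and none lowered, with a median change of 0.02. In the fit of treated arrays as 1 group 1 of them was raised. CLDN8, a tight junction claudin, had vehicle levels of 5.60, 5.68 and 5.38 and treated levels from 6.23 to 7.67 with a median of 7.21. Its pooled rise of 1.54 ± 0.067 (limma adjusted p = 8.97e-09) joined almost equal changes with MPA (2.02) and DHT (2.03) to a smaller one with DEX (0.78). AQP3, a water and glycerol channel, rose by 0.99 ± 0.086, with 1.51 for MPA and 0.38 for DEX. EMP1, an epithelial membrane protein, rose by 1.27 ± 0.07 with 1.91 for MPA, 1.85 for PROG, 0.36 for DHT and 0.96 for DEX. EPGN, a ligand of the EGF receptor, had another order, with vehicle levels of 5.90, 5.35 and 5.66 and treated levels from 6.24 to 7.43, with 1.72 for DEX against 0.72 to 0.89 for the others. DEX exceeded the mean of the other compounds by 0.94 ± 0.088 for EPGN (limma adjusted p = 2.75e-05). RANBP3L was under the median of the array medians on all vehicle arrays, so its rise is given as at least 2.09-fold. ANKRD22 and TMEM63C, whose functions are less well described, rose by 1.08 ± 0.048 and 0.97 ± 0.04.

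**Figure D2:**
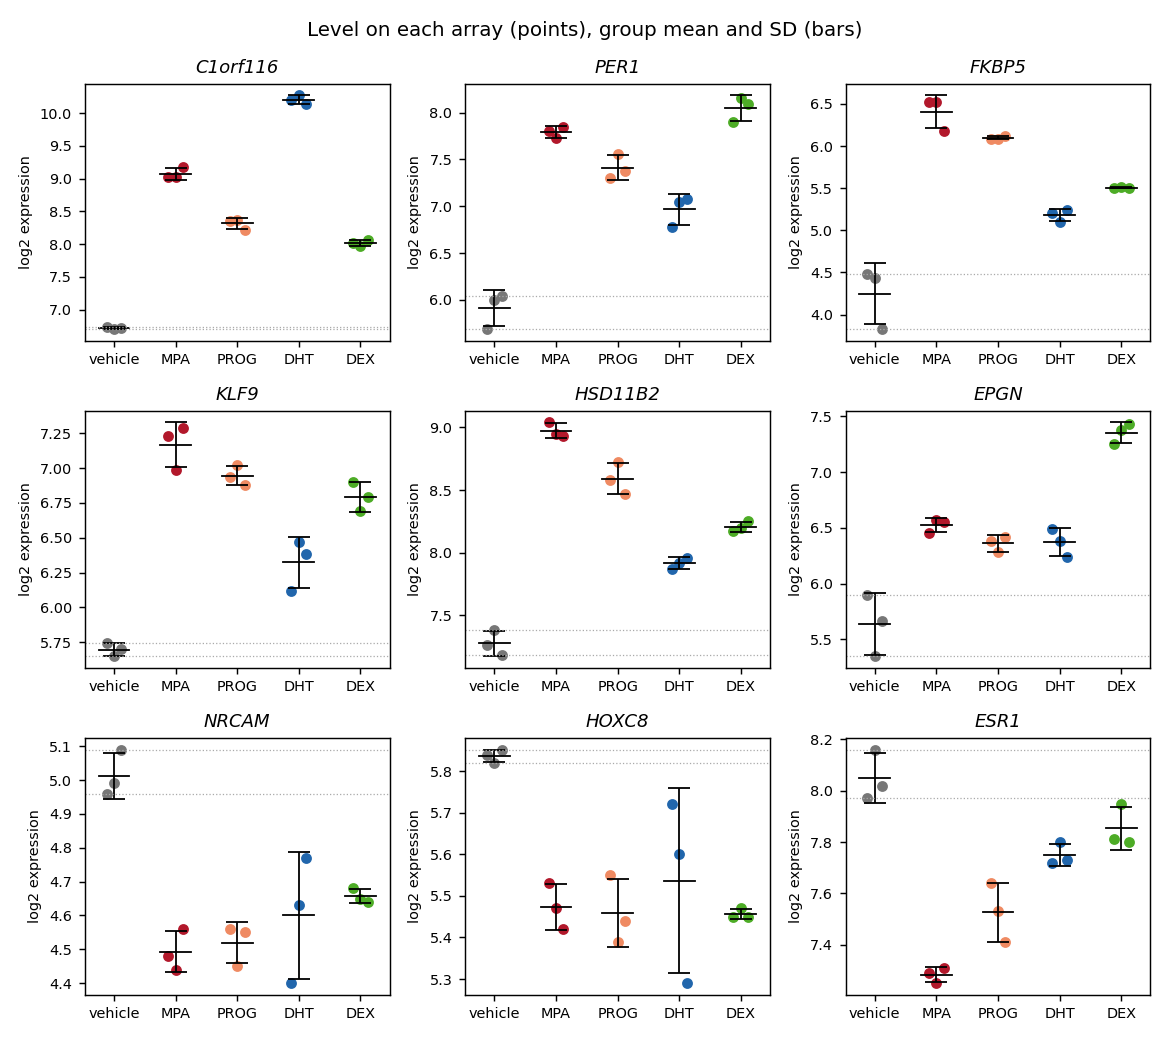
Log2 level of 9 genes on each of the 15 arrays (1 point an array, 3 a group, with the group mean as a line and its SD as a bar), on the vertical axis, for vehicle, MPA, PROG, DHT and DEX. Each of the 12 treated points of C1orf116 lies at or above 7.97 against at most 6.74 for vehicle. EPGN is highest with DEX, and every treated point of HOXC8 lies below its vehicle points.

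Across the 409 raised probe sets the compounds ranked in size as MPA, PROG, DEX and DHT by their median log2 change, at 0.45, 0.34, 0.19 and 0.17. MPA gave the largest change in 323 of them, PROG in 25, DHT in 25 and DEX in 36. DHT gave the smallest in 196 and DEX in 171. Set against the mean of the other 3 compounds, MPA differed in 233 of the raised probe sets, always above it, beside 525 of all 14841 (3.54%). DHT differed in 171, of which 162 were below and 9 above, beside 311 of all (2.10%), and DEX in 147, of which 136 were below and 11 above, beside 308 (2.08%). PROG differed in 45, 42 above and 3 below, beside 59 (0.398%). Since the pool includes MPA, genes with a large MPA change are more easily raised in the pool, so these counts describe the pool and are no independent ranking. Each compound was also fitted against the same 3 vehicle arrays: 880 probe sets passed for MPA (5.93%), 419 for PROG (2.82%), 164 for DEX (1.11%) and 132 for DHT (0.889%).

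Only KDM4B and NAMPT among the probe sets raised past 1.5-fold were not called by the F test; both were picked out after their values were seen. KDM4B, a histone lysine demethylase, had vehicle levels of 6.51, 6.85 and 6.34 and treated levels from 7.02 to 7.55. Its pooled rise was 0.71 ± 0.084 (limma adjusted p = 1.18e-04), with compound changes of 0.89, 0.69, 0.76 and 0.50 for MPA, PROG, DHT and DEX. MPA exceeded the mean of the others by 0.24 (95% interval 0.05 to 0.43). The NAMPT probe set past 1.5-fold rose by 0.64 ± 0.11 (limma adjusted p = 0.00265), with 0.78, 0.70, 0.55 and 0.52. Its difference of MPA from the others was 0.19 (95% interval -0.05 to 0.43). NAMPT encodes the rate-limiting enzyme of NAD salvage. Values of any other NAMPT probe set are not given here, so these need not stand for the whole gene. Intervals of this width leave room for differences between compounds of the order of the smaller changes themselves, so a missed F test does not show that the compounds acted alike.

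The lowered genes changed by less than the raised. AMIGO2, a cell adhesion protein, was the only probe set to fall by 1.5-fold: its vehicle levels were 8.24, 8.31 and 8.13 and its treated levels ran from 6.76 to 7.87 with a median of 7.60. It fell by 0.73 ± 0.081 on the log2 scale (limma adjusted p = 6.69e-05), by 1.23 with MPA and by 0.47 to 0.68 with the others. HOXC8, a homeobox transcription factor, had vehicle levels of 5.84, 5.82 and 5.85 and treated levels from 5.29 to 5.72 with a median of 5.46. Its changes with MPA, PROG, DHT and DEX were -0.36, -0.38, -0.30 and -0.38, and the pooled fall was 0.35 ± 0.065 (limma adjusted p = 0.00513). The F test among compounds gave an adjusted p of 0.909, and the MPA difference from the others was -0.01 (95% interval -0.16 to 0.13). NRCAM, a neuronal cell adhesion molecule, lay at 4.96, 4.99 and 5.09 on vehicle and from 4.40 to 4.77 on treated arrays, with changes of -0.52, -0.49, -0.41 and -0.36. SYT1, a synaptotagmin of vesicle release, fell from 4.92, 4.90 and 5.03 to between 4.41 and 4.75, with changes of -0.50, -0.39, -0.34 and -0.31. In the fit of the treated arrays as 1 group, HOXC8, NRCAM and SYT1 kept limma adjusted p-values of 0.0187, 0.00634 and 0.00712. One rule for naming genes was a large change with the compound that changed them least. Genes chosen in that way pass this fit more easily, so these p-values are no further evidence of a shared fall.

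Of 14 steroid receptor, chaperone and co-regulator genes 3 were lowered, ESR1, PGR and FOXA1, and FKBP5 alone was raised. The median change of the list was -0.04, and 0.794% of all genes were lowered. ESR1, the estrogen receptor alpha gene, had vehicle levels of 7.97, 8.16 and 8.02 and treated levels from 7.25 to 7.95, and it fell by 0.45 ± 0.051 (limma adjusted p = 8.77e-05). The falls ran from 0.77 with MPA and 0.52 with PROG to 0.30 with DHT and 0.20 with DEX. PGR, the progesterone receptor gene, went from 8.34, 8.33 and 8.22 to between 7.63 and 8.22, with 11 of 12 treated arrays below all vehicle arrays, and it fell by 0.41 ± 0.044. FOXA1, a pioneer factor of these receptors, fell by 0.15 ± 0.037 (limma adjusted p = 0.0322), a call that stood in only 8 of the 15 fits that leave out an array. BCL2, an anti-apoptotic gene known as an estrogen target, fell by 0.41 ± 0.031 from vehicle levels of 9.02, 9.04 and 8.96, whereas BCL2L1, its relative, rose by 0.33 ± 0.034. GREB1, another estrogen-responsive gene, rose by 0.60 ± 0.037. Of 31 genes on a list of estrogen-induced genes 5 were raised and 3 lowered, with a median change of 0.03.

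Other lowered genes fell by less than AMIGO2. BMP4, a growth factor of the TGF-beta family, fell by 0.37 ± 0.043, BAMBI, a decoy receptor of that family, by 0.35 ± 0.042, and PDGFD, a platelet-derived growth factor, by 0.37 ± 0.056. All 12 treated arrays lay below the vehicle arrays for these 3 genes. CXCR4, the receptor of the chemokine CXCL12 and the only lowered gene of 13 chemokines and their receptors, fell by 0.48 ± 0.092 (limma adjusted p = 0.00718) from vehicle levels of 5.18, 5.16 and 5.27. Without vehicle array 3 its adjusted p was 0.0564, and with MPA left out of the pool 0.0559. SCIN, an actin-severing protein, fell by 0.40 ± 0.081 (limma adjusted p = 0.0106), and its call was lost without vehicle array 2 or 3, to 0.0727 at most. GPR135 and C1orf220 fell by 0.33 ± 0.07 and 0.32 ± 0.071 and also lost their calls when some vehicle arrays were left out, up to 0.0959 and 0.136.

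Across the 115 lowered probe sets the median changes were -0.33 for MPA, -0.22 for PROG, -0.17 for DHT and -0.17 for DEX. MPA gave the largest fall in 94. Against the mean of the other compounds, MPA differed in 49, 48 of them further down, and DEX in 20, 19 of them less far down. DHT differed in 8, all less far down, and PROG in none. Over all 14841 probe sets the shares that differed were 3.54% for MPA, 2.08% for DEX, 2.10% for DHT and 0.398% for PROG. The pool includes MPA, so genes with a large MPA fall are more easily lowered in it, and these counts describe the pool. Whether the F test share of the lowered, 39.1%, differs from that of the raised, 62.6%, at equal size of change was not tested.

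**Figure D3:**
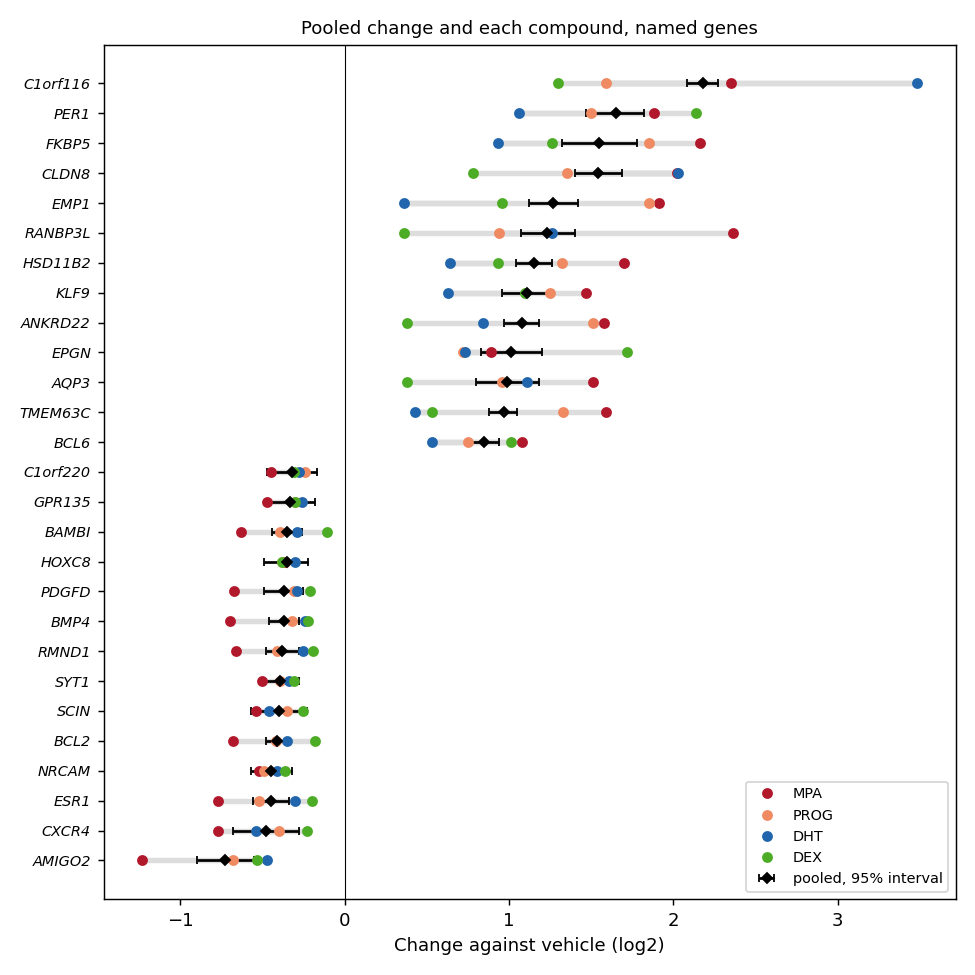
Log2 change against vehicle with MPA, PROG, DHT and DEX (1 coloured point each, horizontal axis) for the genes with the largest separated changes and those with the largest least-compound changes (vertical axis), with the pooled change and its 95% interval as a diamond and bar. C1orf116 is led by DHT at 3.48 and PER1 by DEX at 2.14, and the points of HOXC8 lie together between -0.38 and -0.30.

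The pool also called genes whose compound means differed widely or in sign. At least 1 compound mean lay on the other side of vehicle in 36 of the 524 probe sets. HEY2, a Notch target gene that encodes a repressor, is one: its vehicle levels were 7.54, 7.64 and 7.51 and its treated levels ran from 6.48 to 7.90. The pooled fall was 0.45 ± 0.07 (limma adjusted p = 0.00149), but MPA, PROG and DEX changed it by -1.01, -0.69 and -0.39 while DHT changed it by 0.28. All 3 DHT arrays were above, and the 9 others below, every vehicle array. ACSL1, which activates long-chain fatty acids, rose by 0.74 ± 0.039 in the pool from changes of 1.54 with MPA and 1.18 with PROG and only 0.11 with DHT and with DEX. CSRNP1, a nuclear protein, had 1.60, 1.32, 0.51 and 0.23, with all 12 treated arrays above all vehicle arrays. For these genes the pooled change is a mean of unequal compound changes.

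In the other direction, 301 probe sets were called by the F test and not in the pool, and in 251 of them the compound means lay on both sides of vehicle. Choosing probe sets that differ between compounds but miss the pooled call favours such means, so the 251 are partly built in. OLR1, a receptor of oxidised LDL, had vehicle levels of 5.25, 5.33 and 5.22 and a pooled change of 0.03 ± 0.062. DHT raised it by 0.71, while MPA and PROG changed it by -0.29 and -0.25, and DHT differed from the others by 0.91 ± 0.064 (limma adjusted p = 2.41e-06). ACKR3, an atypical chemokine receptor that also binds CXCL12, had changes of 0.73 with MPA, 0.56 with PROG, -0.32 with DHT and -0.13 with DEX, and a pooled change of 0.21 ± 0.076 (limma adjusted p = 0.189).

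In the table as a whole 2.76% of genes were raised and 0.794% lowered with a median change of 0.00, and the lists of known hormone targets are given beside that. Of the 34 measured genes on a progestin-induced list 22 were raised and none lowered, with a median log2 change of 0.44. On the glucocorticoid-induced list 19 of 30 were raised and CRISPLD2 (-0.21) alone was lowered, with a median of 0.35. CRISPLD2 changed by -0.53 with MPA, -0.25 with PROG, -0.13 with DHT and 0.08 with DEX. Its fall was not called with MPA left out of the pool. On the androgen-induced list 14 of 27 were raised and none lowered, with a median of 0.26. Together they held 76 different genes, of which 44 were raised and 1 lowered, and 12 were on more than 1 list. With the treated arrays fitted as 1 group the raised members numbered 6, 4 and 5 on the progestin, glucocorticoid and androgen lists. The F test among compounds called 43 of these 45. The lists were drawn up with earlier results of these data known, so their counts are a description.

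Of 27 immediate early genes, which respond within minutes to many stimuli, 10 were raised and none lowered, among them the AP-1 genes JUN (0.53 ± 0.059), FOSL2 (0.50 ± 0.036) and JUNB (0.38 ± 0.038), and RHOB (0.45 ± 0.038), a small GTPase. JUN changed by 0.92 with MPA and 0.21 with DHT. With MPA left out of the pool 6 of the 27 were raised, and with the treated arrays fitted as 1 group 0. The metallothioneins, small metal-binding proteins, had 2 of 11 raised, MT2A by 0.41 ± 0.036 and MT1F by 0.22 ± 0.045. Of 25 growth factor receptor and feedback genes 5 were raised, including the feedback inhibitors SPRY4 (0.85 ± 0.072) and ERRFI1 (0.50 ± 0.042), the receptor EGFR (0.39 ± 0.039) and the adaptor IRS2 (0.64 ± 0.056), and CISH (-0.20) was lowered. EGFR changed by 0.77 with MPA and 0.56 with PROG, against 0.08 with DHT and 0.14 with DEX. In the adhesion list THBS1, a matrix protein, and UNC5B, a netrin receptor, rose by 0.77 ± 0.042 and 0.72 ± 0.063, beside the falls of AMIGO2 and NRCAM. UNC5B changed by 1.71 with MPA and 0.88 with PROG, against 0.25 with DHT and 0.05 with DEX. Of 25 fatty acid genes 6 were raised and 1 was lowered, led by ACSL1 and ACOT6 (0.69 ± 0.096). ACOT6 changed by 1.38 with MPA and 1.41 with PROG, against 0.08 with DHT and -0.10 with DEX. With MPA left out of the pool 4 fatty acid genes and 1 metallothionein were raised, and the fit of treated arrays as 1 group called 0 raised members in each of the metallothionein, growth factor, adhesion and fatty acid lists.

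Of the 32 lists 9 held no called gene: inflammatory NF-kB, interferon-induced, sterol synthesis, mitotic, unfolded protein response, fibroblast, blood and endothelial, ribosomal protein and housekeeping genes. Of the 134 different genes on them, limma gave 7 higher and 5 lower at an unadjusted p under 0.05, and 4 were called when the prior variance was allowed to follow intensity. Of all 14841 probe sets, 2051 (13.8%) had such an unadjusted p, and 642 were called with the prior following intensity. The median changes of these lists lay between -0.06 and 0.05. Of widely used reporters, SGK1, ZBTB16 and KLK3 lay under the array medians and changed by 0.14, 0.05 and -0.02. PIP, an androgen-responsive secretory protein, was well measured and changed by 0.18 ± 0.053 (limma adjusted p = 0.108).

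**Figure D4:**
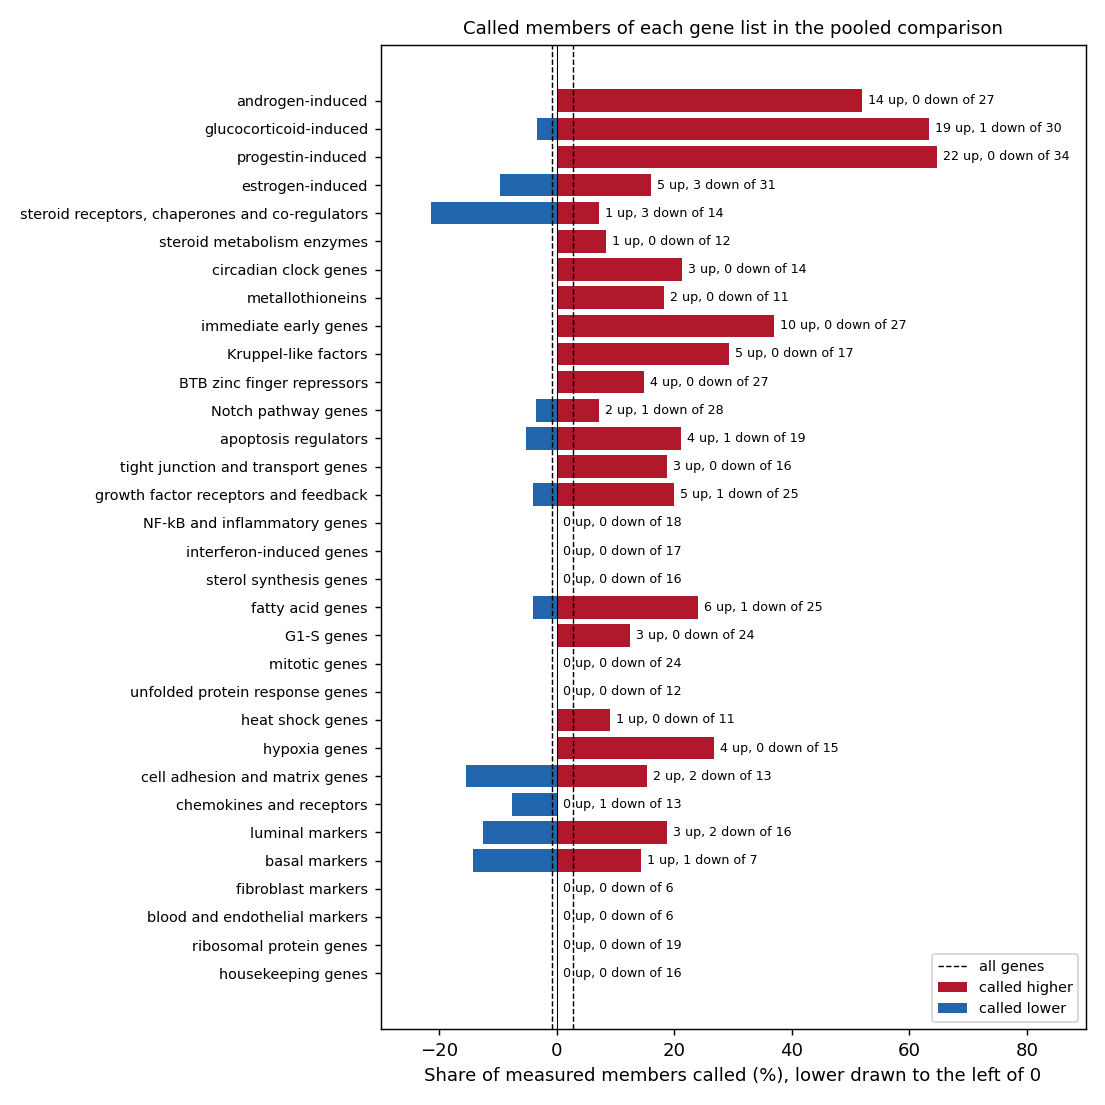
Share of measured genes raised (bars to the right of 0) and lowered (bars to the left) in the pool, in percent on the horizontal axis, for each of the 32 gene lists on the vertical axis. Dashed lines give the shares over all genes, 2.76% and 0.794%, and the bars of the progestin (22 of 34), glucocorticoid (19 of 30) and androgen (14 of 27) lists are the longest.

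Probe sets on microRNA genes called in the pool were looked at after their values were seen, since 8 of 732 such probe sets passed (1.09%), 4 of them above the array medians. Mature sequences are shown for those with the clearest values, because a microRNA pairs with its targets through its seed, bases 2 to 8, in capitals. The 3 with the larger changes share no seed.
hsa-miR-21-5p: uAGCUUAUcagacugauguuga
hsa-miR-29c-3p: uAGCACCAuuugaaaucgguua
hsa-miR-181b-5p: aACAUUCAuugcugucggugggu
The sequences are from RefSeq on GRCh38.p14. The array probes cannot tell the primary transcript from the mature form.

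MIR21, the gene of miR-21, had vehicle levels of 7.57, 7.49 and 7.45 and treated levels from 7.71 to 9.08 with a median of 8.55. It rose by 0.99 ± 0.066 (limma adjusted p = 3.96e-07), or 1.98-fold, with 1.49 for MPA, 1.13 for PROG, 0.39 for DHT and 0.94 for DEX. The overlapping gene VMP1 changed by 0.114 with an adjusted p of 0.180 in the same fit. MIR29C had vehicle levels of 7.68, 7.42 and 7.46 and treated levels from 7.72 to 8.69, and it rose by 0.75 ± 0.082 (limma adjusted p = 5.68e-05). MIR181B1 fell by 0.36 ± 0.064 (limma adjusted p = 0.0039) from 8.72, 8.51 and 8.82 to between 7.98 and 8.60, and MIR181A1HG, its host transcript, changed by -0.366 (adjusted p = 0.0187). MIR365B fell by 0.25 ± 0.063 (limma adjusted p = 0.0448), a call that stood in only 3 of the 15 fits that leave out an array, with an adjusted p of up to 0.247. In the fit of treated arrays as 1 group, MIR21 and MIR29C had an adjusted p of 0.0638, MIR181B1 of 0.27 and MIR365B of 0.133.

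Promoter sequence was set beside these results because the 3 receptor classes read closely related sites. RefSeq windows of 300 bases (250 before to 50 after the first-listed start, GRCh38.p14) were matched for 323 of the 403 raised and 89 of the 115 lowered genes. The sequence TGTTCT or AGAACA, searched on both strands, was in 34 raised windows (10.5%), 4 lowered windows (4.49%), 1124 of 10661 measured genes (10.5%) and 4056 of all 27305 (14.9%). The share in the raised genes was that of the measured genes. The full inverted repeat, AGAACA and TGTTCT with 3 bases between, was in none of the 323 and in 1 of all windows (0.00366%). Receptor sites often lie far from promoters, and the window says nothing of those. Single windows were read for 23 of the genes with the largest separated or most shared changes, 11 raised and 12 lowered. The motif was in FKBP5, EPGN and ESR1 of these 23, shown from 250 before to 30 after the start with the motif in capitals. RefSeq lists further starts for some genes, and only the first was used.
FKBP5, chr6:35728554-35728833, minus strand: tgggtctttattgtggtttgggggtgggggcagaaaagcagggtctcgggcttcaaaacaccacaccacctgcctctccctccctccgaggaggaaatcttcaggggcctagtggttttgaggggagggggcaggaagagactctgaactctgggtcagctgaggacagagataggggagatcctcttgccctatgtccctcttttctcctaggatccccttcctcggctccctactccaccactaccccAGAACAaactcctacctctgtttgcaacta
EPGN, chr4:74308220-74308499, plus strand: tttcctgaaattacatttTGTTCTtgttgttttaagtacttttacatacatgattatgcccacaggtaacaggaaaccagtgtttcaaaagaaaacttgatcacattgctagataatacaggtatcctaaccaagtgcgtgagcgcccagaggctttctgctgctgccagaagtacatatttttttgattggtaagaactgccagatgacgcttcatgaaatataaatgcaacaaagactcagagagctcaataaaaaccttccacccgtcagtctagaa
ESR1, chr6:151656422-151656701, plus strand: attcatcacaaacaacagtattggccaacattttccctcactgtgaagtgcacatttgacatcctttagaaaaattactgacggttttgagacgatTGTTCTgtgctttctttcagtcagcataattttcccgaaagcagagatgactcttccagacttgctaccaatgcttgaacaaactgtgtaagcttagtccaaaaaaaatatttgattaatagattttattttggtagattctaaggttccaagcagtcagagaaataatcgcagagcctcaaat

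**Figure D5:**
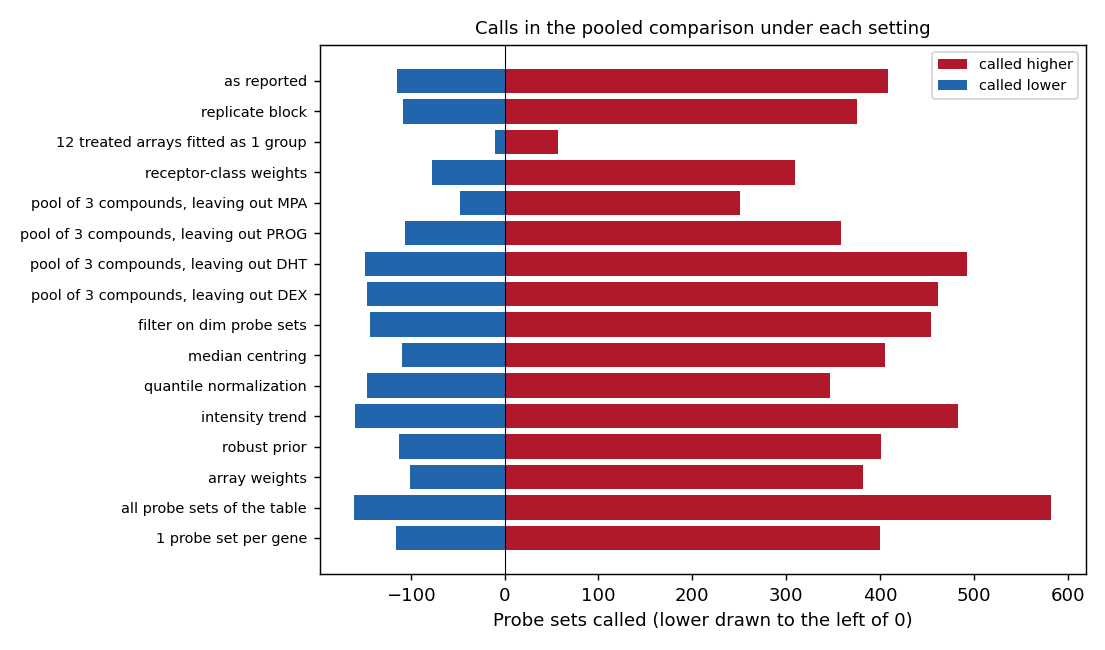
Number of probe sets raised (bars to the right of 0) and lowered (to the left) in the pool (horizontal axis) under each way of fitting (vertical axis). The count is 524 in all as reported, 298 with MPA left out of the pool and 67 when the 12 treated arrays are fitted as 1 group.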

How the data were processed

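Total RNA of 15 ZR-75-1 samples was measured on 1-colour Affymetrix arrays, 3 for each of vehicle, MPA, PROG, DHT and DEX. The authors deposited log2 expression values, and Partek and RMA are named per the submitters' processing notes, without versions. RMA normalization of this kind takes out a change common to most genes and compresses dim probe sets. No depth applies to arrays, so the number of arrays limits the precision. Probe sets with 1 gene symbol were kept, with no filter on dim values. limma 3.58.1 in R 4.3.3 fitted 5 group means. The pooled contrast gave each compound mean an equal weight, and an F test compared the compounds. P-values were adjusted by Benjamini-Hochberg over 14841 probe sets, with a threshold of 0.05. The fit was tested on simulated data. A probe set under the median of the array medians on one side has only a bound there, and its fold is given as "at least".

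Named genes were the 12 largest separated changes in each direction, the 8 in each direction with the largest change in the compound that changed them least, the 6 with the smallest F test p, 5 called by the F test alone with compounds on both sides of vehicle, up to 4 members of any list in which 2 or more were called, and a set of reporters. Genes named otherwise are members of a list, or are said to have been picked after their values were seen. The separated changes were chosen for a lack of overlap between treated and vehicle arrays, so that lack is no further support for them. The members, lists and tests were chosen with earlier results of these data known. Reporters NR3C1 and TSC22D3 were not analysed here. Samples were grouped by the treatment label, and no batch label was used.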

Additional observations from a re-analysis of the deposited data

Results flagged for a closer look

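In all, 5 named genes differed between compounds with compound means on both sides of vehicle and were not called in the pool; limma's F test among compounds gave the adjusted p-values that follow. OLR1 (4.12e-06) had changes of -0.29, -0.25, 0.71 and -0.05 with MPA, PROG, DHT and DEX. ACKR3 (1.09e-05) had 0.73, 0.56, -0.32 and -0.13. ATP13A4 (1.11e-05) had 1.00, 0.06, 0.07 and -0.05. HS3ST6 (8.84e-04) had 0.43, 0.92, 0.13 and -0.03. THRSP (0.00324) had 1.03, -0.11, 0.84 and 0.07. Their pooled changes were 0.03, 0.21, 0.27, 0.36 and 0.46.

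Every probe set of the table was also fitted, with adjustment over all 34878. There the 20037 without a single symbol gave 319 called in the pool (1.59%), 241 higher and 78 lower. Their largest rise was 1.92 and their largest fall 0.70 on the log2 scale. In the same fit 423 of the named probe sets were called, against 524 in the main fit. The 20037 were named by no table used here.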

How the results depend on the processing

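Of the 524 calls, 255 stood with each of the 15 arrays left out in turn, and none changed sign in any of the alternatives run. Leaving out 1 array gave 361 to 517 called, and the lowered count ran from 70 to 120, lowest without vehicle array 1 or 3. Fitting the 12 treated arrays as 1 group gave 67 called, 57 higher and 10 lower, and 14 past 1.5-fold. Leaving MPA out of the pool gave 298, 251 higher and 47 lower. With receptor-class weights, MPA and PROG together weighed as much as DHT or DEX. That gave 387 called, 310 higher and 77 lower, and 378 of the 524 calls stood (72.1%). Using every probe set of the table gave 84 past 1.5-fold. For OLR1, leaving DHT out of the pool reversed the change to -0.20 (adjusted p = 0.129). Same-numbered arrays correlated in their deviations from the group means at -0.054 to 0.067 over 30 pairs. Arrays of other numbers did so at -0.088 to 0.066 over 60 pairs. Whether the numbers mark a shared effect on some of the genes was not tested. With the replicate block 484 were called in the pool and 517 in the F test, and 456 of the 524 calls stood (87.0%). Of 2487 alternative values of the 83 named genes, 2309 kept direction and side of the threshold, 159 lost the call, 18 gained it and 1 reversed. The cause of these changes was not tested. Groups of 3 arrays limit what small changes can be called, and dim probe sets limit the size of any fold.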

Other observations

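Some gene groups not described above also held raised genes, beside 2.76% of all genes raised. Of 15 hypoxia genes 4 were raised and none lowered: NDRG1, a stress-response gene, by 0.83 ± 0.14, DDIT4, an inhibitor of mTOR signalling, by 0.53 ± 0.043, ANGPTL4, an inhibitor of lipoprotein lipase, by 0.42 ± 0.065, and BNIP3, a mitophagy receptor, by 0.18 ± 0.042. The median change of the 15 hypoxia genes was 0.03. NDRG1 is also on the androgen-induced list, and DDIT4 and ANGPTL4 are on the glucocorticoid-induced list. NDRG1 changed most with MPA (1.48) and ANGPTL4 with DEX (0.92). Without 1 array the adjusted p of BNIP3 reached 0.131 (limma). With MPA left out of the pool 3 of the hypoxia genes were raised, and with the treated arrays as 1 group 0. Among 24 G1-S genes CCNE2, a cyclin, rose by 0.26 ± 0.043, and E2F1 and E2F2 by 0.20 ± 0.048 and 0.21 ± 0.051, but E2F2 kept its call in only 5 of the 15 fits that leave out an array, and 1 G1-S gene was raised with MPA left out of the pool.

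Both marker lists held called genes in each direction. Of 16 luminal markers KRT19, a keratin, SPDEF, an epithelial transcription factor, and AGR2 rose, by 0.25 ± 0.036, 0.16 ± 0.036 and 0.14 ± 0.035, while ESR1 and FOXA1 fell. The limma adjusted p was 5.65e-04 for KRT19, 0.0217 for SPDEF and 0.0490 for AGR2. The list held 2 raised genes with receptor-class weights and 1 with MPA left out of the pool. Of 7 basal markers EGFR rose and OXTR, the oxytocin receptor gene, fell by 0.25 ± 0.056.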
